A study of Mus musculus with 12 samples.

Results

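The collagen genes described here were the 41 genes, of 14270 in the table, whose symbol is Col followed by a type number, the letter a and a chain number. They were chosen by name, not by a measured value, and came from 42 entries because Col4a6 was entered a second time with identical values. Col2a1, Col6a4, Col10a1 and Col21a1 are not analysed here. RNA had been sequenced from the tibialis anterior, a fast muscle at the front of the lower leg, in 12 mouse libraries. KO libraries came from mice in which the REV-ERB receptors were deleted in skeletal muscle only, and WT libraries from wild-type mice. The groups were KO at ZT10, WT at ZT10, KO at ZT22 and WT at ZT22, with 3 libraries in each. ZT counts hours of a light cycle, and these times are those of the sample titles; the design text of the series gives ZT0 and ZT12, so the clock time of a group is uncertain. The sources used here do not give strain, age, sex, floxed alleles or the Cre driver. Nothing states that the libraries of a group came from separate animals, so p-values measure the spread between these libraries.

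Collagens are trimers of chains wound into a triple helix, and each gene encodes a chain. Types I, III and V form the striated fibrils of muscle connective tissue and tendon, and are made mainly by fibroblasts. Type IV builds the network of basement membranes, which sheathe muscle fibres and capillaries, while types XV and XVIII sit in or next to that sheet and type VI forms beaded filaments beside it. Smaller groups decorate fibrils (types IX, XII, XIV and XXII among them), anchor epithelia (type VII) or span the plasma membrane (types XIII, XVII, XXIII and XXV), and type XIII acts at the neuromuscular junction. REV-ERBα and REV-ERBβ, encoded by Nr1d1 and Nr1d2, are nuclear receptors that repress transcription and belong to the circadian clock.

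Values are FPKM, fragments scaled to transcript length and to the total of the library, so levels are per length and may be compared between genes. Depth was unknown, since the table held no counts, and no interval from counting could be given for weakly expressed chains. Nr1d1 lay between 327.72 and 502.81 FPKM in the 6 KO libraries, against 27.64 to 54.0 FPKM in the 6 WT libraries. Nr1d2 lay between 36.31 and 40.61 FPKM in KO libraries and between 28.4 and 43.57 FPKM in WT libraries. The level of Nr1d1 goes against a plain loss of its transcript. Which exons were deleted is not given, so gene totals check no deletion, and KO below means a library labelled KO. Muscle fibre markers (8 of 8 detected) summed to 100766.8 to 105889.1 FPKM in KO and 83410.4 to 93811.2 FPKM in WT at ZT10, and to 78038.2 to 81939.1 FPKM in KO and 64768.6 to 73473.0 FPKM in WT at ZT22. The KO sums were higher at both times without overlap. In 2 libraries of WT at ZT22 the collagens stood apart in opposite directions. Replicate 2 was above its group mean in 16 of the 17 collagens that averaged 1 FPKM or more (median 0.41 on the log2 scale), and replicate 3 in 1 of 17 (median -0.47). Those 2 libraries also held the highest and the lowest summed fibroblast markers of their group, 524.0 and 364.5 FPKM. This order was not particular to fibroblasts. Summed tendon, endothelial, mural, macrophage and adipocyte markers had it too, while Schwann and satellite cell markers had it only in part. Muscle fibre markers had the opposite order, 64768.6 FPKM in replicate 2 and 73473.0 FPKM in replicate 3. Collagen calls of the main tests that change without one of these 2 libraries are given below.

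The collagen RNA of the muscle was dominated by few chains. The 6 genes with a mean of 10 FPKM or more over all libraries were Col3a1 (19.9 FPKM), Col1a2 (19.5), Col4a1 (16.9), Col1a1 (15.4), Col4a2 (12.6) and Col6a2 (10.6), and together they held 69.7% of the summed collagen FPKM. A further 11 genes lay between 1 and 10 FPKM, 18 between 0.1 and 1 FPKM and 6 under 0.1 FPKM. The order at the top is loose: Col3a1 ranged from 12.68 to 26.48 FPKM over the 12 libraries and Col1a2 from 10.83 to 28.68 FPKM, so these neighbours did not differ beyond their spread. Col6a1 (9.16 FPKM), Col15a1 (5.12), Col6a3 (3.41), Col5a3 (3.11), Col22a1 (2.89, a chain of the muscle-tendon junction), Col5a1 (2.88) and Col5a2 (2.67) followed. Of the transmembrane chains none reached 1 FPKM: Col13a1 averaged 0.40 FPKM and Col23a1 0.35 FPKM, while Col17a1 and Col25a1 averaged 0.032 and 0.022 FPKM and were listed at 0 in some libraries. Col4a3, Col4a4 and Col4a5, the type IV chains of kidney, lung and nerve-terminal basement membranes, averaged 0.28, 0.21 and 0.19 FPKM. The cartilage chains Col9a2 and Col9a3 averaged 0.032 and 0.024 FPKM, against 0.89 FPKM for Col9a1. The main tests took genes that averaged 1 FPKM or more, which 17 of the 41 did; Col12a1 (1.07 FPKM) and Col7a1 (1.09) lay just inside and Col14a1 (0.98) and Col9a1 (0.89) just outside.

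**Figure D1:**
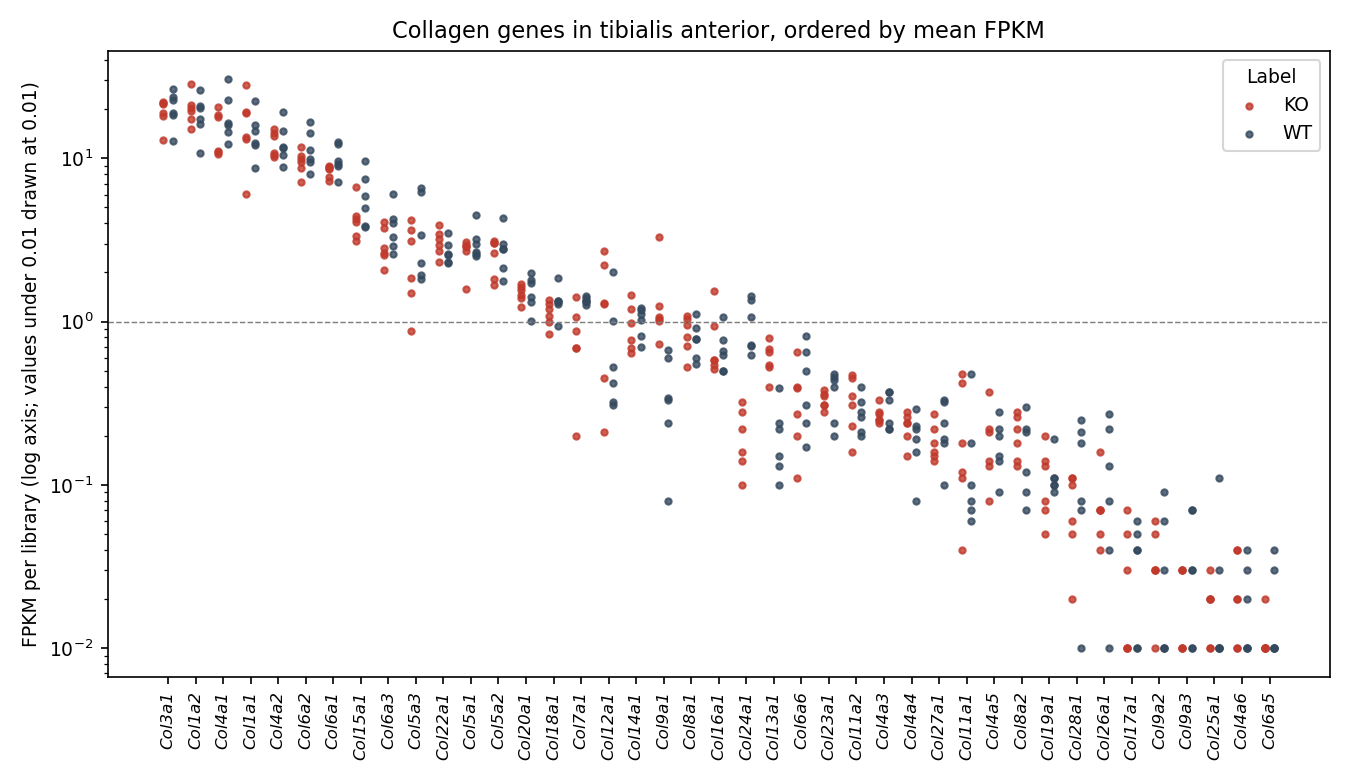
FPKM of the 41 collagen genes in each library on a log axis, with KO libraries in red left of WT libraries in dark blue and the dashed line at 1 FPKM. The 6 genes at 10 FPKM or more sit at the left, and the 2 colours overlap in all but a few genes, Col24a1 and Col13a1 among them.

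Fibrillar chains made up more of the summed collagen FPKM than basement membrane chains in every library. Their share was 48.6% ± 9.3 in KO and 48.1% ± 4.9 in WT at ZT10, and 47.2% ± 2.4 in KO and 41.6% ± 2.7 in WT at ZT22 (SD, n = 3 each). Basement membrane chains held 23.2% ± 4.9 in KO and 24.4% ± 3.6 in WT at ZT10, and 27.8% ± 1.5 in KO and 31.5% ± 1.2 in WT at ZT22. The sum of Col1, Col3 and Col5 chains was 59.9 ± 23.8 FPKM in KO and 61.9 ± 6.6 FPKM in WT at ZT10 (SD, n = 3 each), and 67.8 ± 5.0 FPKM in KO and 64.4 ± 25.4 FPKM in WT at ZT22. Chains of types IV, XV and XVIII summed to 27.05 ± 0.62 FPKM in KO and 31.4 ± 4.2 FPKM in WT at ZT10, and to 40.0 ± 3.7 FPKM in KO and 47.6 ± 14.2 FPKM in WT at ZT22. The fibrillar sum divided by the basement membrane sum was 2.02, 3.22 and 1.43 in the KO libraries and 2.53, 1.58 and 1.93 in the WT libraries at ZT10. At ZT22 this ratio was 1.90, 1.58 and 1.63 in KO libraries and 1.33, 1.46 and 1.19 in WT libraries. The genotypes overlapped at ZT10 and did not at ZT22, where the 3 KO libraries were higher. The direction at ZT22 depends on the summary: the log2 ratio, KO minus WT, was 0.362 from sums and -0.025 from medians of the members' log2 values. The 2 summaries rest on different chains. The median of the 8 basement membrane chains lies between Col18a1 and Col4a3, which averaged 1.23 and 0.28 FPKM. Col4a1, Col4a2 and Col15a1, which make up most of the sum, do not set that median. These sums were not tested, because the genes were picked with earlier results known, and 1 library can carry them: Col1a1 alone was 27.94 FPKM in replicate 2 and 6.08 FPKM in replicate 3 of KO at ZT10.

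Few of the collagens that averaged 1 FPKM or more were called between KO and WT muscle, and none of the abundant ones. By limma at an adjusted p under 0.05, 1 of the 17 tested passed at ZT10 (Col7a1, lower in KO). There 14.3% of all tested genes passed, and 2 of the 17 had an unadjusted p under 0.05. Col7a1 met the minimum of 1 FPKM through its WT libraries. Its means were 0.59 FPKM in KO and 1.36 FPKM in WT at ZT10, and 1.06 and 1.33 FPKM at ZT22. Without the minimum it was also called lower at ZT10 (limma adjusted p = 0.0366). At ZT22, 0 of 17 passed, against 18.3% of all tested genes, with 0 at an unadjusted p under 0.05. The median log2 difference of the 17, KO minus WT on log2(FPKM + 1), was -0.23 at ZT10 and -0.13 at ZT22, beside -0.05 and -0.04 for all tested genes. The muscle fibre markers, whose sums were higher in KO, had medians of 0.23 and 0.10, with Ckm, Myh4 and Pvalb called higher and Myh1 lower at ZT10 and Tnnt3 higher and Myh1 lower at ZT22; their part in the collagen medians was not tested. Groups did not overlap for 6 of the 17 at ZT10, with Col4a1, Col6a1, Col6a3, Col7a1 and Col18a1 lower and Col22a1 higher in KO, where 30.2% of tested genes did not overlap. At ZT22 this held for 1 of 17 (Col20a1, lower in KO), against 41.5% of tested genes. The count at ZT10 is near the share of all genes and the count at ZT22 is below it.

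The chains of types I, III and V showed no called difference. Col1a1, the main chain of tendon and fascia, was 13.19, 27.94 and 6.08 FPKM in KO and 16.08, 12.42 and 12.01 FPKM in WT at ZT10, and 19.14, 18.97 and 13.5 FPKM in KO and 14.73, 22.45 and 8.72 FPKM in WT at ZT22. Its KO libraries lay on both sides of the WT libraries at ZT10 and inside their range at ZT22. The log2 differences were -0.01 ± 0.41 and 0.23 ± 0.41 (SE, limma adjusted p = 0.989 and 0.738). Col3a1, the chain of the fine reticular fibrils around muscle fibres, gave -0.29 ± 0.23 at ZT10 and 0.15 ± 0.23 at ZT22 (limma adjusted p = 0.424 and 0.679). Col5a3, a minor chain of type V, was 1.84, 1.49 and 0.88 FPKM in KO and 1.92, 2.29 and 1.82 FPKM in WT at ZT10. At ZT22 it was 3.12, 3.63 and 4.2 FPKM in KO and 6.2, 6.58 and 3.37 FPKM in WT. All but the low WT library were above every KO library at that time. The difference over both times was -0.38 ± 0.14 (limma adjusted p = 0.0678).

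No basement membrane or filament chain passed the test between KO and WT. Col4a1 was 10.97, 10.61 and 11.03 FPKM in KO and 12.3, 15.99 and 14.54 FPKM in WT at ZT10, and 18.3, 20.65 and 17.98 FPKM in KO and 22.85, 30.53 and 16.57 FPKM in WT at ZT22. The groups were apart at ZT10 and overlapped at ZT22. The difference over both times was -0.30 ± 0.12 (limma adjusted p = 0.0788). For Col4a2, its partner, the differences were 0.02 ± 0.14 at ZT10 and -0.04 ± 0.14 at ZT22 (limma adjusted p = 0.932 and 0.87). Col15a1, which links the basement membrane to the matrix around it, differed by -0.24 ± 0.27 at ZT10 and -0.46 ± 0.27 at ZT22 (limma adjusted p = 0.613 and 0.258). For Col6a1, Col6a2 and Col6a3 the differences lay between -0.36 and -0.23 at ZT10 and between -0.19 and -0.15 at ZT22, and none passed. Without replicate 3 of WT at ZT22, the library with low collagens, Col5a3 (-0.67 ± 0.17, limma adjusted p = 0.0195), Col4a1 (-0.46 ± 0.13, adjusted p = 0.0367) and Col15a1 (-0.79 ± 0.23, adjusted p = 0.0395) were called lower in KO at ZT22, where 16.8% of genes passed. Over both times, where 25.8% passed, the same omission called 6 collagen genes lower: Col4a1, Col5a3, Col6a1, Col6a3, Col7a1 and Col15a1. Without replicate 2 of that group, the library with high collagens, 0 were called at ZT22, where 10.4% of genes passed. Endothelial markers (8 of 8 detected) summed to 64.6 to 88.5 FPKM in KO and 74.6 to 83.9 FPKM in WT at ZT10. At ZT22 they summed to 97.8 to 108.6 FPKM in KO and 110.0 to 142.4 FPKM in WT, lower in KO without overlap. Of the 8, 2 were called lower (Egfl7 and Kdr), where 18.3% of all tested genes were called. The part of the endothelial markers in the type IV and XV values was not tested. In bulk tissue fewer cells of a type and less RNA per cell cannot be told apart, for these and all later values.

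**Figure D2:**
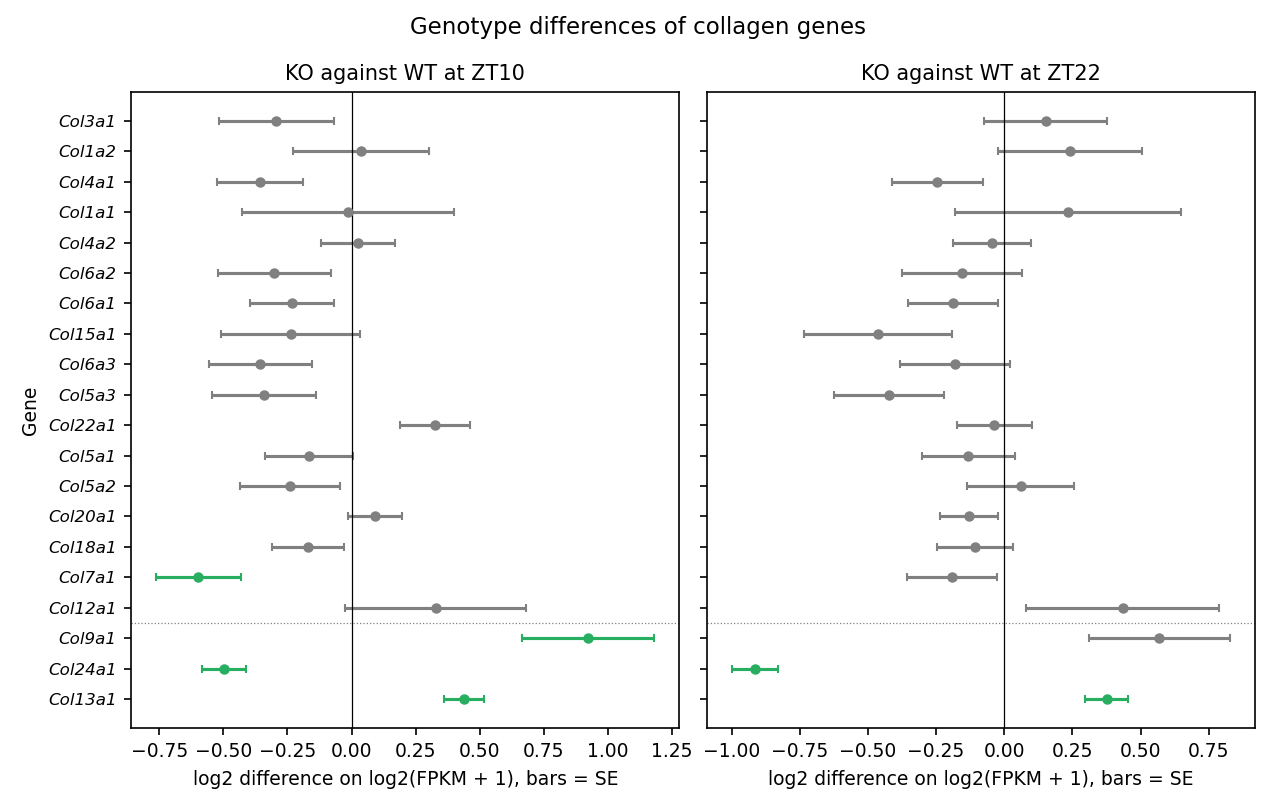
Log2 differences, KO minus WT, with standard errors, at ZT10 (left) and ZT22 (right), for the 17 tested collagen genes from high to low level and, under the dotted line, 3 weaker ones from the fit of all genes. Green marks an adjusted p under 0.05: Col7a1, Col9a1, Col24a1 and Col13a1 at ZT10, and Col24a1 and Col13a1 at ZT22.

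The collagens that did differ between genotypes were weakly expressed. When all 14270 genes were fitted without a minimum level, 4 of the 41 passed at ZT10 (Col9a1 and Col13a1 higher, Col7a1 and Col24a1 lower in KO), where 9.42% of genes passed. At ZT22, 2 of 41 passed (Col13a1 higher, Col24a1 lower), where 12.9% passed. Col9a1, Col13a1 and Col24a1 were the 3 of 41 whose groups did not overlap in the same direction at both times, against 11.9% of all genes. These counts are near or below the shares of all genes, so nothing particular to collagens can be read from them. The 250 bases before the start of each of the 4 genes are shown because 3 of them hold the half-site that REV-ERB and ROR receptors read, AGGTCA. They were copied from RefSeq on GRCm38.p6, and capitals mark the motifs searched, on either strand. Col9a1 had a further start, whose window is not shown and held no AGGTCA on either strand.
Col24a1, chr3:145292222-145292471, plus strand: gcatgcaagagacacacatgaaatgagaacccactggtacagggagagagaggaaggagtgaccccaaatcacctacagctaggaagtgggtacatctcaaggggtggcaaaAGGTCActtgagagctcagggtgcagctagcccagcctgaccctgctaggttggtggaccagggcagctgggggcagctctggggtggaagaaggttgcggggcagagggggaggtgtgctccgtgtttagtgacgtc
Col13a1, chr10:61979109-61979358, minus strand: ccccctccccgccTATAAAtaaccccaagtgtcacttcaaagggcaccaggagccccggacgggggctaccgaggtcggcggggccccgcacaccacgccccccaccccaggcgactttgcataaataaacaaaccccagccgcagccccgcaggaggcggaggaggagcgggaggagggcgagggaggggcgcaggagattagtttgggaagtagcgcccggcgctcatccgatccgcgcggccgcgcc
Col7a1, chr9:108953336-108953585, plus strand: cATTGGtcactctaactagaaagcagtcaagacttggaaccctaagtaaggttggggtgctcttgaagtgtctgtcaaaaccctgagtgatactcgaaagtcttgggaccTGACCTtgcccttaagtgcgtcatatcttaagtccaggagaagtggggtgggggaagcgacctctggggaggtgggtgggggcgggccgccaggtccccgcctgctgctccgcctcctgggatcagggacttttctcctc
Col9a1, chr1:24177360-24177609, plus strand: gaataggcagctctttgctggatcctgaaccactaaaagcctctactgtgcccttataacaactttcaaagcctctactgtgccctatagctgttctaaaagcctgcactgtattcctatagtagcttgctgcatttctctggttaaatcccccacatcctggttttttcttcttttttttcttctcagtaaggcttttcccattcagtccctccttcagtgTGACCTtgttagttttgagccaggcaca
The motif AGGTCA lay 138 bases before the start in Col24a1 as read, and its reverse complement 140 bases before in Col7a1 and 28 bases before in Col9a1. The Col13a1 window held TATAAA, 237 bases before the start, and no AGGTCA on either strand. In windows of the 250 bases before the start, AGGTCA on either strand was present in 8 of 36 collagen windows (33 of the 41 genes matched) and in 14.0% of all 32851 windows. CACGTG, the E-box of the clock activators, was in 0 of 36 collagen windows and 6.02% of all. TATAAA was in 4 of 36 and 12.4%, and CCAAT in 12 of 36 and 33.8%. The other collagen windows with AGGTCA were those of Col4a4, Col6a5, Col11a1, Col20a1 and Col23a1, none of which limma called between KO and WT. A match describes letters and is not a site, and a window without one says nothing of the receptor.

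Col24a1, a fibril-forming chain known mainly from bone and cornea, had the smallest adjusted p of the 41 at both times. Its gene lies on chromosome 3 between 145292472 and 145552011 on the plus strand (GRCm38). It was 0.16, 0.28 and 0.14 FPKM in KO and 0.62, 0.72 and 0.71 FPKM in WT at ZT10. At ZT22 it was 0.22, 0.32 and 0.1 FPKM in KO and 1.43, 1.36 and 1.07 FPKM in WT. Every KO library lay under every WT library, and the WT libraries at ZT22 were above those at ZT10. The mean in KO was 0.283 times that in WT at ZT10 and 0.166 times at ZT22. The fitted differences, which the added 1 FPKM makes smaller for a weak gene, were -0.50 ± 0.08 (limma adjusted p = 0.00356) and -0.91 ± 0.08 (adjusted p = 5.82e-05). Between ZT22 and ZT10 it rose by 0.44 ± 0.08 in WT (limma adjusted p = 0.00576) and differed by 0.02 ± 0.08 in KO (adjusted p = 0.88). The difference between the KO effects at the 2 times was -0.42 ± 0.12 and did not pass (unadjusted p = 0.00465, limma adjusted p = 0.177).

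Col13a1, a transmembrane chain that supports the maturation of neuromuscular junctions, was higher in KO. Its gene spans 61838236 to 61979108 on chromosome 10, minus strand. It was 0.54, 0.4 and 0.65 FPKM in KO and 0.13, 0.1 and 0.15 FPKM in WT at ZT10, and 0.53, 0.68 and 0.79 FPKM in KO and 0.24, 0.39 and 0.22 FPKM in WT at ZT22. The lowest KO library was above the highest WT library at each time. The mean in KO was 4.18 times that in WT at ZT10 and 2.35 times at ZT22. The log2 differences were 0.44 ± 0.08 (limma adjusted p = 0.0047) and 0.38 ± 0.08 (adjusted p = 0.00968). Colq, the collagen-tailed anchor of acetylcholinesterase at the same synapse, rose by 0.83 ± 0.16 in KO at ZT10 (limma adjusted p = 0.00509). At ZT22 Colq differed by 0.28 ± 0.16 (limma adjusted p = 0.266). Synaptic genes did not all rise: in the same list Lamb2 was called higher at ZT10 and Agrn lower at ZT22.

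Col9a1, a fibril-associated chain best known from cartilage, was 1.03, 1.06 and 3.32 FPKM in KO and 0.24, 0.6 and 0.34 FPKM in WT at ZT10. At ZT22 it was 1.01, 1.25 and 0.73 FPKM in KO and 0.33, 0.08 and 0.67 FPKM in WT. The KO libraries were above the WT libraries at each time, and 1 KO library at ZT10 stood far above the rest. The log2 difference over both times was 0.75 ± 0.18 (limma adjusted p = 0.0146, where 18.9% of genes passed). At ZT10 it was 0.92 ± 0.26 (adjusted p = 0.0458), a call lost in 11 of 16 other settings (adjusted p from 0.0291 to 0.162 over the 16), and at ZT22 0.57 ± 0.26 (adjusted p = 0.182). Its partners in the type IX trimer, Col9a2 and Col9a3, reached at most 0.09 and 0.07 FPKM in any library. Without replicate 3 of KO at ZT10, the high library, the ZT10 difference of Col9a1 was 0.56 (limma adjusted p = 0.0757).

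Col7a1, which forms the anchoring fibrils under the epidermis, was 0.88, 0.69 and 0.2 FPKM in KO and 1.33, 1.32 and 1.44 FPKM in WT at ZT10. At ZT22 it was 1.07, 0.69 and 1.42 FPKM in KO and 1.33, 1.27 and 1.39 FPKM in WT. The WT libraries were close to each other at both times, and the KO libraries were all lower at ZT10 and overlapped WT at ZT22. The difference was -0.60 ± 0.16 at ZT10 (limma adjusted p = 0.0301) and -0.19 ± 0.16 at ZT22 (adjusted p = 0.448). Over both times it was -0.39 ± 0.12 (adjusted p = 0.0256, where 25.8% of tested genes passed). The ZT10 call was lost in 5 of 17 other settings: when only the ZT10 groups were fitted (limma adjusted p = 0.0759), without replicate 3 of KO at ZT10 (-0.41, adjusted p = 0.0906) and without replicate 1, 2 or 3 of WT at ZT10 (adjusted p = 0.0608, 0.0767 and 0.093). The call over both times was lost without replicate 3 of WT at ZT10, replicate 2 of KO at ZT22 or replicate 1 of WT at ZT22 (adjusted p = 0.0544, 0.0624 and 0.0507). An exon of Col7a1 shares 36 bases with Mir711 on the same strand.

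Summed markers of some other cells also stood apart between the genotypes, though few single markers passed the test. Of all tested genes, 14.3% were called at ZT10 and 18.3% at ZT22, and these lists are too short to be set against those shares. At ZT10 the 6 Schwann cell markers summed to 16.2 to 18.5 FPKM in KO and 9.1 to 13.2 FPKM in WT, and at ZT22, where the groups overlapped, their median was 18.7 FPKM in KO and 17.7 FPKM in WT; of 2 Schwann markers tested, 1 was called higher at each time (Mbp). The 7 tendon markers summed to 21.6 to 24.9 FPKM in KO and 26.7 to 35.6 FPKM in WT at ZT10, and to 27.5 to 37.2 FPKM in KO and 31.0 to 52.4 FPKM in WT at ZT22, with 1 of 5 tested called higher (Scx) and 1 lower (Thbs4) at each time. The 5 adipocyte markers had a median sum of 28.8 FPKM in KO and 13.8 FPKM in WT at ZT10, and of 14.8 FPKM in KO and 19.6 FPKM in WT at ZT22. The adipocyte sums did not overlap at either time, higher in KO at ZT10 and lower in KO at ZT22, and 0 of 3 tested passed the limma test at either (2 at ZT10 and 1 at ZT22 had an unadjusted p under 0.05). Summed fibroblast markers (10 of 10 detected) overlapped between genotypes, at 390.8 to 685.2 FPKM in KO and 364.5 to 606.6 FPKM in WT. None of these markers was listed at 0 in every library. Their part in the collagen differences was not tested.

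**Figure D3:**
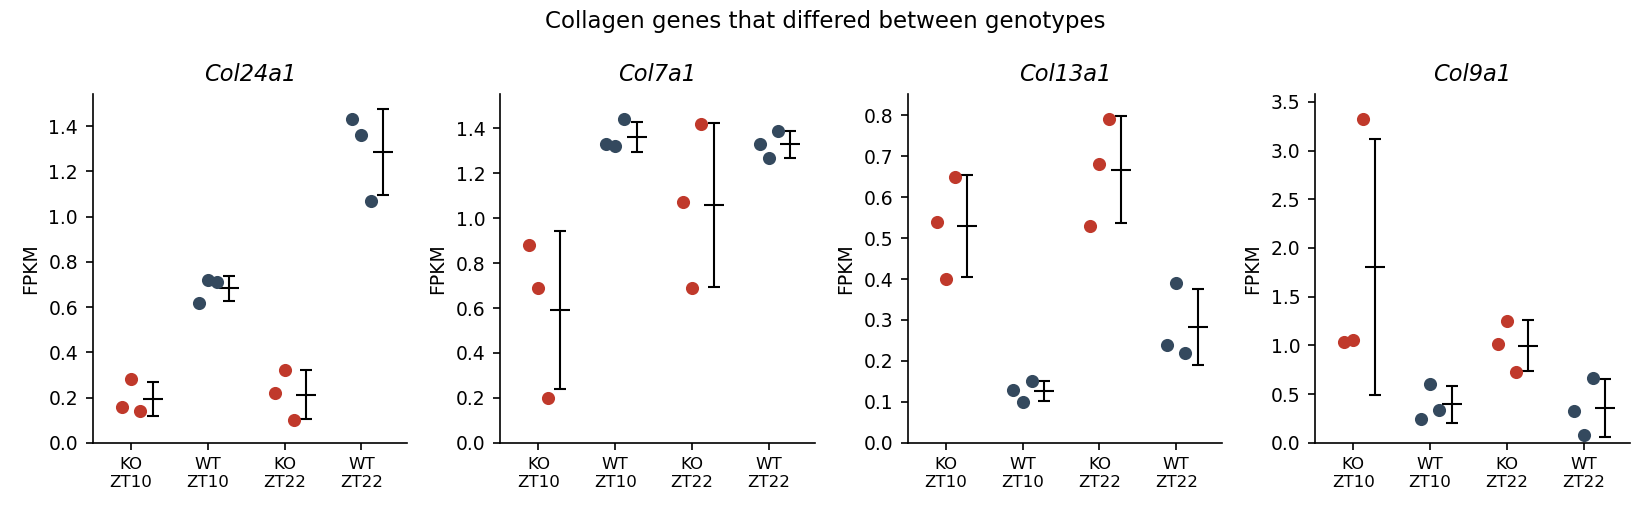
FPKM of Col24a1, Col7a1, Col13a1 and Col9a1 in each library, with KO left of WT at each time; points are libraries and bars the mean and SD of 3. Col24a1 is lower and Col13a1 and Col9a1 are higher in every KO library than in the WT libraries of the same time.

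The ratio of the 2 common type IV chains separated the genotypes although neither chain was called. Col4a1 and Col4a2 assemble as 2 copies of the first chain with 1 of the second, and their genes lie head to head on chromosome 8, the first on the minus strand from 11198423 to 11312826 and the second on the plus strand from 11312805 to 11449287. Their first exons share 22 bases, shown because the genes are read from them in opposite directions (RefSeq, GRCm38.p6, chr8:11312805-11312826, plus strand).
Col4a1 and Col4a2, shared start: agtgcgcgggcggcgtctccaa
Col4a1 divided by Col4a2 was 1.04, 1.05 and 1.03 in KO and 1.39, 1.37 and 1.39 in WT at ZT10. At ZT22 the ratio was 1.28, 1.36 and 1.31 in KO and 1.55, 1.60 and 1.42 in WT. The KO libraries were lower at both times with no overlap, and both genotypes were higher at ZT22. The log2 ratio differed by -0.41 at ZT10 and -0.21 at ZT22, KO minus WT, and by -0.31 over both times (two-sided exact permutation within times, p = 0.005, the smallest that 400 arrangements allow; 0.025 adjusted over 5 ratios). The comparison was picked after the values were seen, and a ratio within a library shows unequal change of the chains and does not depend on scaling. It does not say which chain moved. The other 4 ratios did not pass: Col1a1 to Col1a2 (-0.04, exact permutation adjusted p = 0.88), Col5a1 to Col5a2 (-0.08, 0.88), Col6a1 to Col6a2 (0.02, 0.88) and Col6a3 to Col6a1 (-0.12, 0.5). Of these, Col5a1 to Col5a2 did not overlap at ZT22 (0.95 to 0.987 in KO and 1.049 to 1.416 in WT), nor Col6a3 to Col6a1 at ZT10 (0.27 to 0.298 in KO and 0.315 to 0.365 in WT), and both overlapped at the other time. At a single time 3 libraries against 3 cannot go below an exact p of 0.1. Strand was not stated for the counting, so reads from the shared bases cannot be assigned with certainty.

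**Figure D4:**
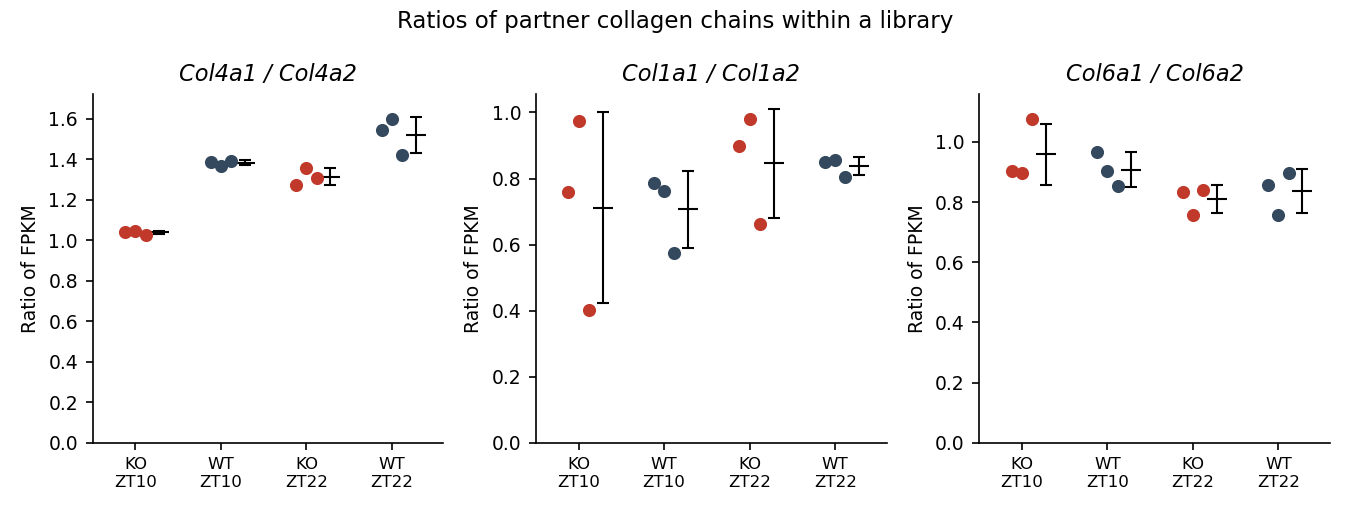
Ratios of FPKM between partner chains in each library, KO left of WT at each time; points are libraries and bars the mean and SD of 3. Col4a1 over Col4a2 lies at 1.03 to 1.05 in KO and 1.37 to 1.39 in WT at ZT10, while the other 2 ratios overlap.

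Between the times of day, a few chains were higher at ZT22 in both genotypes. In KO, 3 of 17 passed and all rose (Col5a3, Col4a1, Col4a2), where 42.6% of tested genes passed and 28.9% rose. In WT, 4 passed and all rose (Col5a3, Col4a1, Col4a2, Col20a1), where 24.2% passed and 18.4% rose. These counts too are near or below the shares of all genes. The median of the 17 was 0.25 in KO and 0.21 in WT, and that of all tested genes was itself 0.11 and 0.09 above 0, so changes are read against that shift. Col5a3 rose by 0.97 ± 0.20 in KO (limma adjusted p = 0.0024) and by 1.05 ± 0.20 in WT (adjusted p = 0.00373). For Col4a1 the rise was 0.75 ± 0.17 in KO (limma adjusted p = 0.00347) and 0.64 ± 0.17 in WT (adjusted p = 0.0164, a call lost in 3 of 17 other settings). The values of both genes at ZT22 lay above those at ZT10 in every library of each genotype.

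Col4a2 was 14.34, 15.2 and 13.75 FPKM at ZT22 and 10.52, 10.14 and 10.73 FPKM at ZT10 in KO. In WT it was 14.78, 19.1 and 11.64 FPKM at ZT22 and 8.86, 11.68 and 10.44 FPKM at ZT10. The times were apart in KO and overlapped by 1 library in WT. The rise was 0.43 ± 0.14 in KO (limma adjusted p = 0.0295) and 0.50 ± 0.14 in WT (adjusted p = 0.0255), and each call was lost in 5 of 17 other settings (adjusted p up to 0.088 in KO and 0.108 in WT). In KO these were median-of-ratios scaling (0.30, adjusted p = 0.0751) and leaving out replicate 1 or 2 at either time. Col20a1, a fibril-associated chain, was 1.8, 1.99 and 1.72 FPKM at ZT22 and 1.01, 1.32 and 1.42 FPKM at ZT10 in WT (0.34 ± 0.11, limma adjusted p = 0.0361). That call was lost in 6 of 17 other settings, the scaling among them (0.26, adjusted p = 0.0683). Without a minimum level, where 17.5% of genes passed, Col26a1 (0.21 ± 0.05, limma adjusted p = 0.0198) and Col24a1 were also called higher at ZT22 in WT. Col26a1 was 0.22, 0.27 and 0.13 FPKM at ZT22 and 0.04, 0.08 and 0.0 FPKM at ZT10, and its call was lost in 4 of 16 other settings. The Col24a1 call was lost with a pseudocount of 0.1 (limma adjusted p = 0.0649). Without replicate 2 of WT at ZT22, 1 gene was called in WT (Col5a3, 0.90 ± 0.22, limma adjusted p = 0.0208, where 13.0% of genes passed). The count in WT was also 1 without replicate 1 of WT at ZT10 and without replicate 1 of WT at ZT22. Without replicate 3 of WT at ZT22, 5 genes were called in KO, Col5a2 (0.43 ± 0.14, limma adjusted p = 0.0318) and Col6a3 (0.40 ± 0.15, adjusted p = 0.0487) being added, where 42.2% of genes passed. The same omission added Col15a1 in WT (0.71 ± 0.23, limma adjusted p = 0.0486). Leaving out replicate 2 of WT at ZT22 instead added Col5a2 in KO (0.43 ± 0.15, limma adjusted p = 0.0444).

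Summed vessel markers were also higher at ZT22. The 8 endothelial markers summed to 97.8 to 108.6 FPKM at ZT22 and 64.6 to 88.5 FPKM at ZT10 in KO, and to 110.0 to 142.4 FPKM at ZT22 and 74.6 to 83.9 FPKM at ZT10 in WT. Of the 8, 4 were called higher at ZT22 in KO, with Egfl7 lower, where 28.9% of all tested genes rose, and 4 in WT, where 18.4% rose. Mural cell markers (6 of 7 tested) summed to 165.8 to 206.8 FPKM at ZT22 and 123.0 to 138.1 FPKM at ZT10 in KO, and to 167.0 to 209.7 FPKM at ZT22 and 120.0 to 151.6 FPKM at ZT10 in WT. Of the 6 tested, 2 were called higher at ZT22 in KO (Abcc9 and Rgs5) and 1 in WT (Rgs5), beside the same 28.9% and 18.4% of all tested genes. Of 12 tested basement membrane partners, 4 were called higher and 2 lower at ZT22 in KO, and 2 higher and 0 lower in WT. The shares of all tested genes that rose were again 28.9% and 18.4%. Hspg2, the heparan sulphate core protein of basement membranes, was called higher in both genotypes and was named after its values were seen. The part of these markers and of Hspg2 in the rise of Col4a1, Col4a2 and Col5a3 was not tested.

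**Figure D5:**
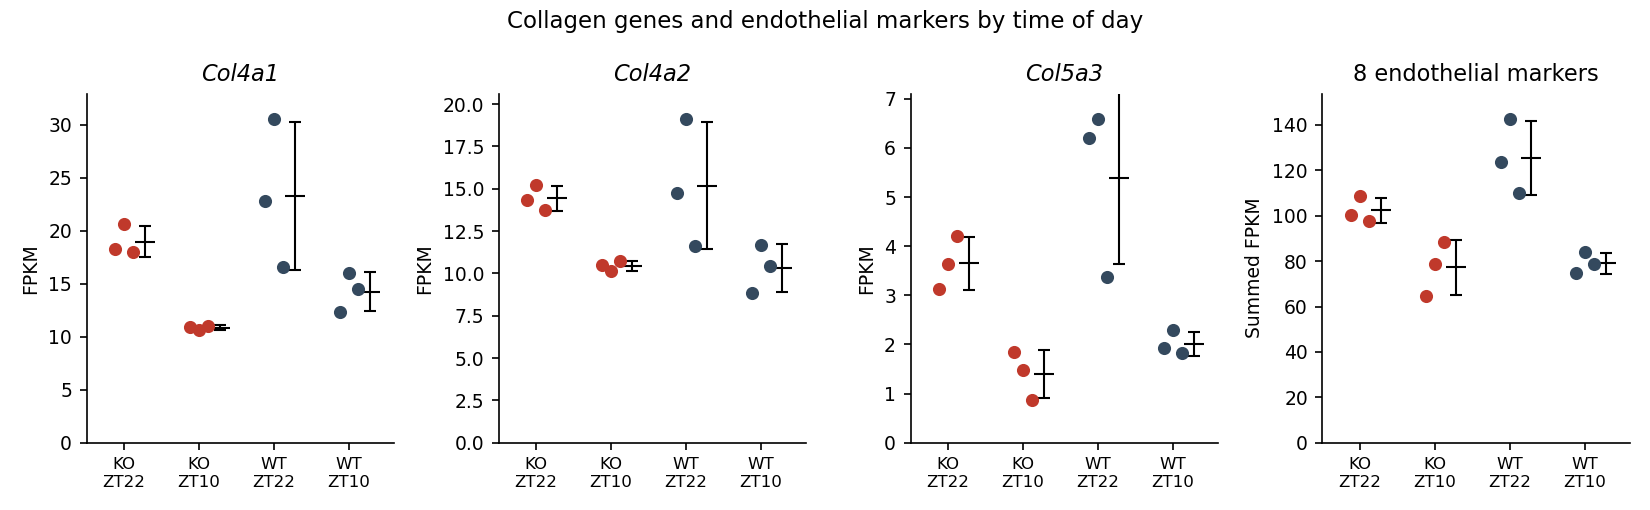
FPKM of Col4a1, Col4a2 and Col5a3 and the summed FPKM of 8 endothelial markers, with ZT22 left of ZT10 within KO (red) and WT (dark blue); points are libraries and bars the mean and SD of 3. In all 4 panels the means at ZT22 are above those at ZT10 in both genotypes, and replicate 3 of WT at ZT22 is the lowest of its group.

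The genotype effect was not shown to change with time for any collagen. Of the 17 tested, 0 passed the limma test of the difference between the KO effects at ZT22 and ZT10, where 0.0402% of all tested genes passed, and 0 had an unadjusted p under 0.05. Without a minimum level 0 of 41 passed, against 0.028% of all genes, and 3 had an unadjusted p under 0.05 (Col24a1, Col19a1 and Col26a1, named after their values were seen).

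Chains of 1 trimer were correlated across the 12 libraries, and so were Col1a1 and Col3a1, which belong to different types. With 8 pairs compared, permutation p-values were adjusted over them. For Col4a1 with Col4a2 Pearson's r was 0.93 (adjusted p = 0.0002) and Spearman's rho 0.91 (adjusted p = 0.0008), for Col6a1 with Col6a2 r was 0.93 (0.0002) and rho 0.79 (0.00664), and for Col5a1 with Col5a2 r was 0.84 (0.000347) and rho 0.85 (0.0038). The type I chains Col1a1 and Col1a2 had r of 0.82 (0.0027) and rho of 0.80 (0.00664), and Col1a1 with Col3a1 r of 0.82 (0.00204) and rho of 0.64 (0.0462). Fibrillar Col1a1 and basement membrane Col4a1 had r of 0.30 (0.341) and rho of 0.28 (0.375). Col3a1 with Col6a3 had r of 0.57 (0.0605) and rho of 0.34 (0.328), and Col15a1 with Col18a1 r of 0.60 (0.0494) and rho of 0.46 (0.182). Without the 2 libraries farthest from the median of the first chain, r was 0.83, 0.82, 0.74, 0.87 and 0.79 for the pairs Col1a1 with Col1a2, Col1a1 with Col3a1, Col5a1 with Col5a2, Col4a1 with Col4a2 and Col6a1 with Col6a2. It was 0.17 for Col15a1 with Col18a1, whose relation rests on those libraries. With group means removed, Col5a1 with Col5a2 no longer passed (r = 0.82, exact permutation adjusted p = 0.105), nor did Col15a1 with Col18a1 (r = 0.52, adjusted p = 0.313), while the other 4 pairs that had passed still did. All chains of a library share its scaling and tissue piece.

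The collagens had a larger median spread within groups than all tested genes. The SD of log2(FPKM + 1) within groups had a median of 0.27 over the 17 tested collagens, 0.15 over all 9953 tested genes and 0.15 over the 7254 genes in the same range of level. Col1a1 varied most (0.62), then Col12a1 (0.52), a fibril-associated chain of tendon and fascia, and Col15a1 (0.40). Col20a1 varied least (0.10). Col12a1 was 0.45, 2.23 and 0.21 FPKM in KO and 0.53, 0.32 and 0.42 FPKM in WT at ZT10, and 2.72, 1.28 and 1.3 FPKM in KO and 1.01, 2.0 and 0.31 FPKM in WT at ZT22. Its high library at ZT10 was the one with the highest Col1a1. The differences of 0.33 ± 0.35 and 0.43 ± 0.35 did not pass (limma adjusted p = 0.59 and 0.425).

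Genes that fold, cut, crosslink, break down or bind collagen gave the following counts of calls, to be read against the 14.3% of all tested genes called at ZT10 and the 18.3% at ZT22. Of 17 tested folding and modifying enzymes, 1 fell in KO at ZT10 (Mia3, which exports procollagen from the endoplasmic reticulum, -0.62 ± 0.13, limma adjusted p = 0.00688) and 1 at ZT22 (P3h4, a partner of lysyl hydroxylation, -0.49 ± 0.13, adjusted p = 0.0208), with medians of -0.10 and -0.15. Among 8 procollagen proteinases and crosslinking enzymes, Loxl1 rose at ZT10 (0.82 ± 0.19, limma adjusted p = 0.0147) and Lox at ZT22 (1.18 ± 0.28, adjusted p = 0.012), both of which oxidise lysines for crosslinks. The 11 tested genes of collagen breakdown gave 0 calls at ZT10, with 0 at an unadjusted p under 0.05, and 1 at ZT22 (Pepd, the dipeptidase that frees proline, -0.39 ± 0.11, limma adjusted p = 0.0281). The 8 tested collagen receptors gave 0 calls at either time, with 0 and 2 at an unadjusted p under 0.05; Cd36, with the highest mean among them, is shared with fatty acid uptake.

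Of 12 tested basement membrane partners, 2 rose in KO at ZT10 (Lamb2, the synaptic laminin chain, 0.94 ± 0.17, limma adjusted p = 0.00274, and Colq). At ZT22 2 rose and 1 fell. Sparc (0.56 ± 0.18, limma adjusted p = 0.047), which binds type IV collagen, and Lama2, the main laminin chain of muscle fibres, rose. Agrn (-0.39 ± 0.10, limma adjusted p = 0.022), an organiser of the synapse, fell. Among 15 fibril-associated matrix proteins Thbs4, a tendon matrix protein, fell at both times (-0.998 ± 0.166 and -0.935 ± 0.166, limma adjusted p = 0.00173 and 0.00249), while Scx, the tendon transcription factor of the marker list, rose by 0.84 ± 0.18 at each (adjusted p = 0.00951 and 0.00862). Of 17 tested TGF-beta genes, a pathway that drives collagen transcription, Tgfb3 rose at both times (1.10 ± 0.22 and 1.02 ± 0.22, limma adjusted p = 0.00577 and 0.00803). Mstn was called lower at ZT10, and at ZT22 Tgfbr1 rose (0.94 ± 0.14, adjusted p = 0.000999) and Ltbp4, which tethers latent TGF-beta to the matrix, fell (-0.42 ± 0.13, adjusted p = 0.0358).

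The authors' deposited table gave the same 4 collagens at ZT10 as the fit of all genes, and many more at ZT22. At a q under 0.05 the authors' deposited table called 4 collagens at ZT10 (Col9a1 and Col13a1 higher, Col7a1 and Col24a1 lower in KO), where 6.8% of genes passed. For ZT22 the authors' deposited table called 7 higher and 14 lower, with 54.8% of all genes passing, and for 16 of those calls the KO and WT libraries overlapped. Col15a1, for instance, had a q of 4.05e-21 in the authors' deposited table although replicate 3 of WT (3.83 FPKM) lay among the KO libraries (3.13, 6.63 and 4.25 FPKM). No q in that comparison exceeded 0.444 in the authors' deposited table.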

How the data were processed

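RNA-seq of 12 tibialis anterior libraries, 3 in each of 4 groups, was used as deposited. Levels were FPKM computed by the authors per gene; the unit was inferred from the values, since sums of FPKM times transcript length were similar in all libraries. The deposited table also holds the authors' log2 fold changes with their p-values and q-values. Per the submitters' processing notes, HISAT2, HTSeq and DESeq2 1.8.2 were used, with builds GRCm38 and mm10. How the counting treated strand was not recorded there. Of 14583 entries, 82 without values and 230 repeats were left out, leaving 14270 genes, of which 14081 matched GENCODE M21 for positions. Depth was unknown.

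The files held no counts, so limma 3.58.1 in R 4.3.3 was fitted with a trend on log2(FPKM + 1), with a pseudocount of 1, as 1 model of the 4 group means over 12 libraries. The 9953 genes with a mean of 1 FPKM or more entered, and p-values were adjusted by Benjamini-Hochberg over all genes of a comparison. A fit of all 14270 genes gave the tests for the 24 weaker collagens; combinations of that fit with other settings, and all chain ratios, were added after the data had been seen. Chain ratios were tested by two-sided exact permutation within times, and chain pairs with 100000 resamples. Alternatives were a pseudocount of 0.1, no filter, median-of-ratios scaling, a replicate block, only the groups compared and each library left out. All collagens could be named, and from each other list up to 3 called genes with the smallest adjusted p between KO and WT at either time, or the gene with the highest mean where none was called; Lama2, Mstn, Hspg2, some markers and the Schwann, tendon and mural sums were added after their values were seen. The members, lists and rules were chosen with earlier results of these data known. The fits were tested on simulated data. Promoter windows came from RefSeq on GRCm38.p6 and were searched with Python 3.11.15, numpy 2.4.6, pandas 2.3.3 and scipy 1.17.1; figures used matplotlib 3.10.9.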

Additional observations from a re-analysis of the deposited data

Results flagged for a closer look

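Col19a1, a fibril-associated chain found at some synapses and in the muscle of the oesophagus, had KO libraries below WT at ZT10 and above WT at ZT22. It was 0.07, 0.05 and 0.08 FPKM in KO and 0.09, 0.11 and 0.19 FPKM in WT at ZT10, and 0.13, 0.14 and 0.2 FPKM in KO and 0.1, 0.1 and 0.11 FPKM in WT at ZT22. The difference between the KO effects at ZT22 and ZT10 was 0.15 ± 0.06 on log2(FPKM + 1) without a minimum level (unadjusted p = 0.0281) and did not pass (limma adjusted p = 0.294). Its gene lies tail to tail with Col9a1, 9205 bases away on chromosome 1.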

How the results depend on the processing

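The number of collagens called between KO and WT was 1 at ZT10, 0 at ZT22 and 1 over both times. Without a minimum level it was 4, 2 and 4 of 41, and with only the groups compared 0 at ZT10. Leaving out 1 library gave 0 to 1 at ZT10, 0 to 3 at ZT22 and 0 to 6 over both times, the highest without replicate 3 of WT at ZT22; over both times it was 2 without replicate 1 of KO at ZT10. Between ZT22 and ZT10 the count was 3 in KO (2 to 5 with 1 library left out) and 4 in WT (1 to 5, and 2 with only the groups compared). The replicate numbers did not pair libraries (r of deviations -0.134 to 0.21); a fit with the replicate number as a block gave 1, 0 and 1 for genotype, 3 and 4 for time and 0 for the difference between effects, as without the block, and moved Col9a1 at ZT10 to a limma adjusted p of 0.0505.

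The Col24a1 and Col13a1 genotype calls held in all 16 settings tried at each time. The log2 fibrillar to basement membrane ratio, KO minus WT at ZT22, was 0.362 from sums and -0.025 from medians of log2 values. The basement membrane median rests on the weak chains Col18a1 and Col4a3. With group means removed r was 0.822 for Col5a1 with Col5a2 (exact permutation adjusted p = 0.105) and 0.519 for Col15a1 with Col18a1 (0.313). Without the 2 farthest libraries r was 0.534 for Col1a1 with Col4a1, 0.291 for Col3a1 with Col6a3 and 0.17 for Col15a1 with Col18a1. With 1 library left out, the Col1a1 to Col1a2 log2 ratio ran from -0.173 to 0.147 and Col6a1 to Col6a2 from -0.026 to 0.042, turning sign in 6 of these settings; neither was called. The cause of these shifts was not tested. Groups of 3 and unknown depth limit what weak chains can show.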
